A study of Homo sapiens with 4 samples.

Results

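RGS family genes encode regulators of G protein signaling, and 10 of them were followed in a lymphoma line with and without a guide against GNA13, the gene of the G protein subunit Gα13. The 10 are RGS1, RGS2, RGS3, RGS10, RGS12, RGS13, RGS14, RGS16, RGS18 and RGS19, taken by symbol from a table of 25066 genes. The line was NUDUL1, a human line of diffuse large B cell lymphoma of the germinal center type, used as a single-cell clone with doxycycline-inducible Cas9 and the transduced thromboxane receptor Tbxa2r. Cells carried either a control sgRNA or a GNA13 sgRNA, after doxycycline had been given to induce Cas9, and 2 libraries were made for each guide. All 4 libraries came from cells treated with 10 nM U46619, a stable thromboxane mimetic that drives Gα13 through that receptor, for 24 h. No untreated cells are among these samples, so each comparison is between genotypes under U46619, with 1 guide per genotype.

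An RGS protein binds the active, GTP-bound Gα subunit and speeds up the hydrolysis of GTP, so the subunit turns itself off and the signal from the receptor shortens. Members of the R4, R12 and RZ subfamilies act mainly on the Gαi and Gαq classes. In B cells the chemokine receptors that guide cells in and out of follicles signal through Gαi, and RGS1 and RGS13 are known as brakes on that response in germinal centers. For the Gα12 and Gα13 class the same job is done by guanine exchange factors that carry an RGS-like domain, among them ARHGEF1.

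Values are the authors' normalized reads on the log2 scale, in libraries of 29209544 to 31537955 mapped reads. The B cell markers MS4A1, CD79A, CD79B, PAX5 and CD22 lay between 10.21 and 14.33 in every library. Germinal center markers ranged from 1.61 (MEF2B) to 14.08 (MME), and BCL6, the master regulator of that cell state, read 10.75 and 10.90 where the label is control and 8.23 and 8.44 where it is GNA13-deficient. Of 6 T cell markers, 5 were at or under 3 reads in all 4 libraries, with CD3D, CD3E, CD2 and TRAT1 at 0. Of 6 myeloid markers, 3 were at or under 3 reads in all libraries, FCGR3A and S100A8 at 0, while the summed level of the 6, mostly LYZ and ITGAM in the former, was 228 to 242 normalized reads in libraries labelled control and 26.9 to 27.7 in the pair labelled GNA13-deficient. The part of these marker shifts in the results was not tested. GNA13 itself read 12.46 and 12.45 in libraries labelled control, against 13.10 and 13.11 in the pair labelled GNA13-deficient. It was higher by 0.65 on the log2 scale (limma, adjusted p = 0.00214, standard error 0.05). Reads of a GNA13 pseudogene may be included in these values, which was not tested. The mRNA of the targeted gene was therefore not lower where the label says it was disrupted, and every direction here rests on the labels. Protein was not measured in these libraries, so the GNA13 reads do not tell whether Gα13 was lost. Nothing says that the 2 libraries of a genotype came from separate cultures, so p values measure only the spread between these libraries.

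Of the 10 RGS genes, 5 were lower and 1 was higher in the libraries labelled GNA13-deficient at an adjusted p under 0.05 (limma over 16945 genes). Among all genes tested, 16.6% were lower and 13.1% were higher by the same rule, 29.7% together. The lower genes were RGS1, RGS2, RGS3, RGS13 and RGS16, which all belong to the R4 subfamily. RGS19, of the RZ subfamily, was the higher gene. RGS10, RGS12, RGS14 and RGS18 did not pass the test. At a log2 difference of at least 1 in size, 4 of the 10 were lower and none was higher, where 7.81% and 2.19% of all genes were. With any 1 of the 4 libraries left out, 1 residual degree of freedom remained and no gene passed, while 5 to 7 of the RGS genes had an unadjusted p under 0.05. The median log2 difference of the 10 genes was -0.51, against -0.02 for all genes tested. In bulk RNA, fewer cells of a type and less RNA per cell cannot be told apart. Since the genes were chosen with earlier results of these data known, these counts describe the family and are no test of it.

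**Figure D1:**
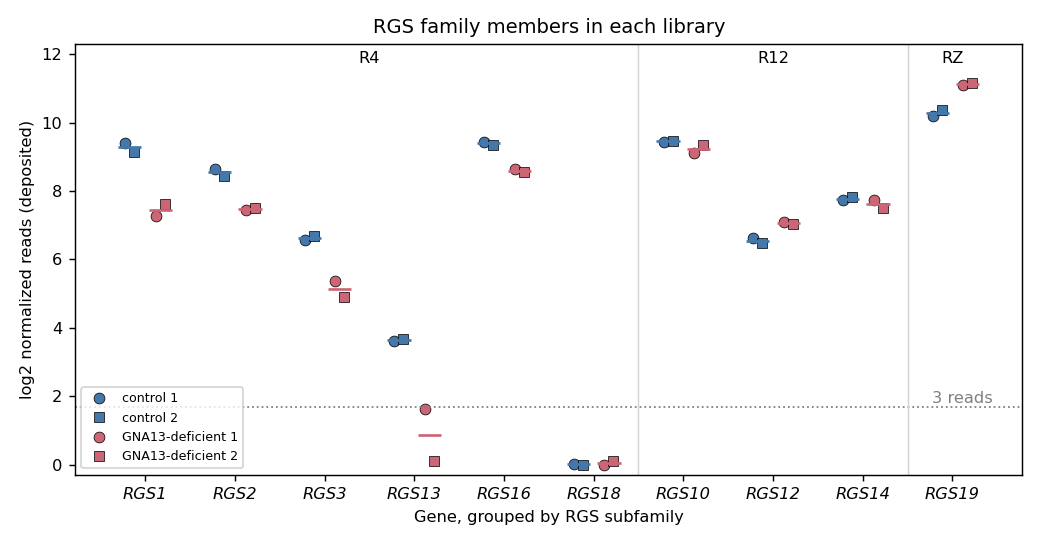
Deposited log2 normalized reads (vertical axis) of the 10 RGS genes (horizontal axis, grouped by subfamily) in the 4 libraries. Points are libraries, short lines are means of 2 libraries and the dotted line is the highest level that 3 reads gave in any library. RGS1, RGS2, RGS3, RGS13 and RGS16 are lower and RGS19 is higher in both libraries labelled GNA13-deficient than in both libraries labelled control.

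RGS1, which limits the response of B cells to chemokines, stood at 9.41 and 9.14 on the log2 scale in libraries labelled control. In the pair labelled GNA13-deficient it stood at 7.28 and 7.61. Both of the latter lay far below both of the former, and the gap was several times the distance between replicates (0.27 and 0.34). The difference was -1.83 (standard error 0.16, 95% interval -2.26 to -1.41, adjusted p = 0.00279 from limma), which is a level 3.56-fold lower (2.65 to 4.78). It rested on 668 and 574 reads against 151 and 182.

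RGS2, an R4 member that acts preferentially on Gαq, read 8.65 and 8.43 in libraries labelled control and 7.44 and 7.52 in the pair labelled GNA13-deficient. The genotypes did not overlap. Its level was 2.09-fold lower in the latter (95% interval 1.67 to 2.63), a log2 difference of -1.07 (standard error 0.13, limma adjusted p = 0.0053).

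RGS3, a gene with many transcripts whose products can also bind Gβγ, stood at a lower level, with 6.56 and 6.69 in libraries labelled control and 5.36 and 4.91 in the pair labelled GNA13-deficient. In reads these were 93 and 105 against 40 and 28. The pair labelled GNA13-deficient was the more spread, by 0.45, and still lay below both control values. Its log2 difference was -1.49 (standard error 0.26, adjusted p = 0.0149 from limma). Without the filter on low values the adjusted p was 0.0867, and that of RGS1 was 0.0509.

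RGS16, a further R4 protein that acts on Gαi and Gαq, read 9.44 and 9.35 in libraries labelled control, then 8.63 and 8.55 in the pair labelled GNA13-deficient. Replicates were 0.09 apart in each genotype, and the genotypes did not overlap. The fall was the smallest of the 5, at 1.75-fold, or -0.81 on the log2 scale (95% interval -1.02 to -0.59, standard error 0.08, adjusted p = 0.00384 from limma).

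RGS13, known as a germinal center B cell RGS gene, was near the limit of detection. It had 12 and 13 reads where the label is control and 3 and 1 reads where it is GNA13-deficient, with log2 values of 3.61 and 3.68 against 1.62 and 0.11. The direction was the same in both libraries of each genotype, but the size was poorly determined. Summed over libraries and scaled by their constants, the ratio of GNA13-deficient to control reads was 0.17, with a 95% interval from counting error alone of 0.042 to 0.49. The fitted log2 difference was -2.78 (standard error 0.60, adjusted p = 0.0271 from limma), it moved to -0.90 with a pseudocount of 10, and the adjusted p was 0.0723 without a mean-variance trend and 0.155 without the filter on low values. RGS18, an R4 gene best known from platelets, had 1 read in control replicate 1 and in GNA13-deficient replicate 2 and was listed at 0 in the others, where control replicate 2 lists 1 read as 0 too. A count of 0 allows up to 3 reads, so no fold is given for it. Its fitted log2 difference of 0.04 (limma, adjusted p = 0.948) rests on those 2 reads.

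RGS19, also called GAIP, binds Gαi3 and other Gαi subunits, and moved the other way. Its log2 values were 10.21 and 10.37 in libraries labelled control, and 11.09 and 11.15 in the pair labelled GNA13-deficient. No overlap was seen, and the replicates lay within 0.17 of each other. It was 1.78-fold higher in the latter (95% interval 1.55 to 2.04), a log2 difference of 0.83 (standard error 0.08, limma adjusted p = 0.003), on 1161 and 1349 reads against 2118 and 2114.

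The R12 subfamily holds RGS10, a short protein found widely in immune cells, and the longer RGS12 and RGS14, which also carry Ras-binding and GoLoco motifs. RGS10 read 9.44 and 9.46 in libraries labelled control, then 9.11 and 9.35 in the pair labelled GNA13-deficient. In the same order, RGS14 read 7.73 and 7.84, then 7.73 and 7.50. RGS12 read 6.63 and 6.47, then 7.09 and 7.04. RGS14 overlapped between genotypes, whereas RGS10 lay lower and RGS12 higher in both libraries labelled GNA13-deficient. In all, 8 of the 10 genes did not overlap between genotypes, 6 lower and 2 higher, where 65.3% of all genes tested did not overlap, 34.0% lower and 31.3% higher. Differences were -0.22 for RGS10 (95% interval -0.49 to 0.04, adjusted p = 0.174 from limma), -0.17 for RGS14 (-0.53 to 0.20, adjusted p = 0.432) and 0.52 for RGS12 (0.09 to 0.94, adjusted p = 0.0754). The sign of the RGS14 difference turned under quantile normalization and median centring, while RGS12 passed the threshold under both and under 2 other alternatives.

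**Figure D2:**
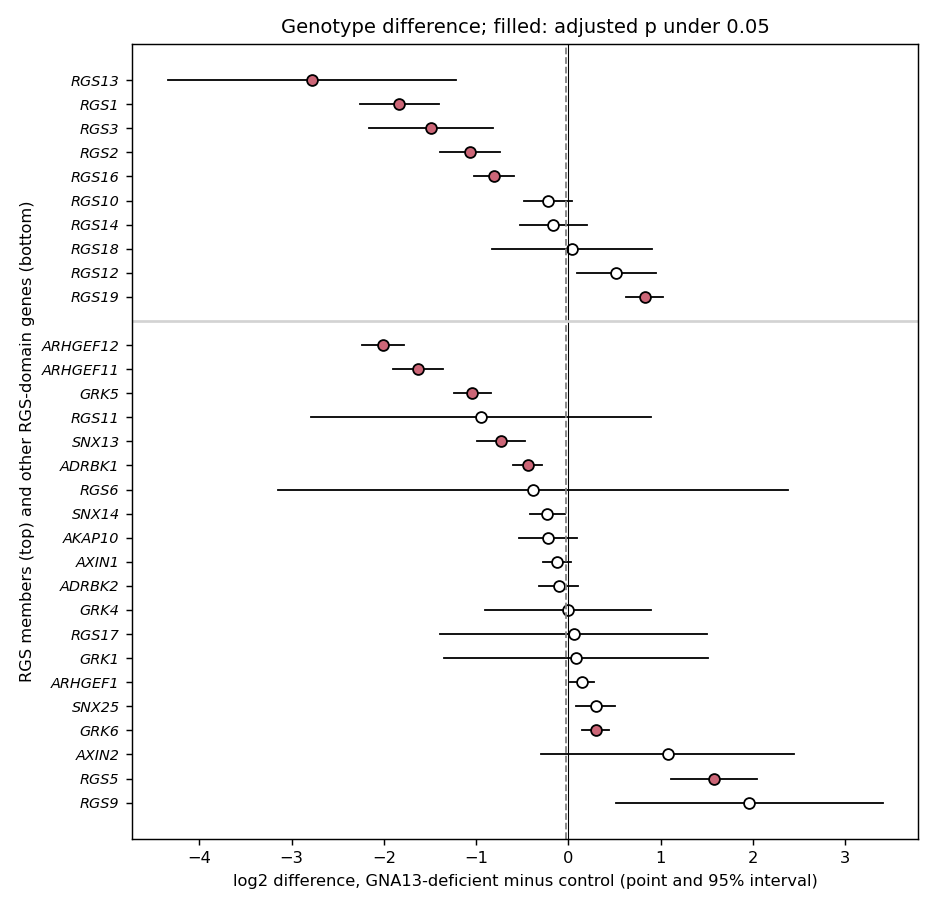
Log2 difference between genotypes (horizontal axis, GNA13-deficient minus control) for the 10 RGS genes (top) and the other tested genes with an RGS or RGS-like domain (bottom), each with its 95% interval from limma. Filled points have an adjusted p under 0.05 and the dashed line is the median of all genes tested, -0.02. RGS1 at -1.83 and RGS19 at 0.83 lie on either side of 0, and ARHGEF12 at -2.01 is the lowest of the other genes.

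The members that fell did so by different amounts. The intervals of RGS1 (-2.26 to -1.41) and RGS16 (-1.02 to -0.59) did not meet, and the upper bound of RGS1 lay just below the lower bound of RGS2 (-1.39 to -0.74). These differences between genes were not tested. Gaps between the log2 values of a pair of members within a library do not depend on how libraries were scaled. They are not corrected for length, so only their change between genotypes is read. The value of RGS1 minus that of RGS16 was -0.03 and -0.21 in libraries labelled control and -1.36 and -0.94 in the pair labelled GNA13-deficient. The value of RGS19 minus that of RGS16 went from 0.77 and 1.02 in libraries labelled control to 2.45 and 2.60 in the pair labelled GNA13-deficient. Neither gap overlapped between genotypes, though an exact two-sided permutation test of 2 libraries against 2 cannot give a p below 0.333.

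Levels of different genes are compared here per length, as recovered reads scaled to kilobases of merged exon and to the mapped reads of the library (RPKM). RGS19 was the most abundant member, with 19.6 and 21.1 in the libraries labelled control, followed by RGS10 with 18.3 and 17.8. In the libraries labelled GNA13-deficient RGS19 stood at 34.7 and 35.1 and RGS10 at 14.01 and 16.02. The control levels of RGS19 and RGS10 differed little beyond their spread, whereas with the GNA13 guide they stood far apart. Below them in the libraries labelled control came RGS16 (mean 9.22), RGS2 (5.91) and RGS1 (5.04), of which RGS2 and RGS1 overlapped. RGS14 had a mean of 1.95, RGS3 and RGS12 had means of 0.25 and 0.22 with RGS3 only just the higher (lowest value 0.2421, against a highest of 0.2413 for RGS12), and RGS13 and RGS18 were under 0.1.

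Summed over the 10 genes, the per-length level was 62.2 and 60.0 RPKM in libraries labelled control and 60.2 and 62.2 in the pair labelled GNA13-deficient, so the genotypes overlapped in the total. The make-up did not. R4 genes made up 35.6% and 31.4% of the sum in libraries labelled control and 15.6% and 14.8% in the pair labelled GNA13-deficient. RGS19 went from 31.5% and 35.2% to 57.6% and 56.5%. R12 genes, mostly RGS10, were at 32.9% and 33.4% and then at 26.9% and 28.7%. With the longest transcript in place of merged exons, the order of the genotype means was kept, and RGS19 went from 29.7% and 33.3% to 55.5% and 54.3%. The order within control replicate 1 was not kept. There RGS10 (25.3) then stood above RGS19 (24.55), and RGS2 (10.06) above RGS16 (9.696). Which of RGS19 and RGS10 is the higher in that library thus depends on the length used. The counting annotation is not given in the sources used here, so exon lengths are those of GENCODE.

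**Figure D3:**
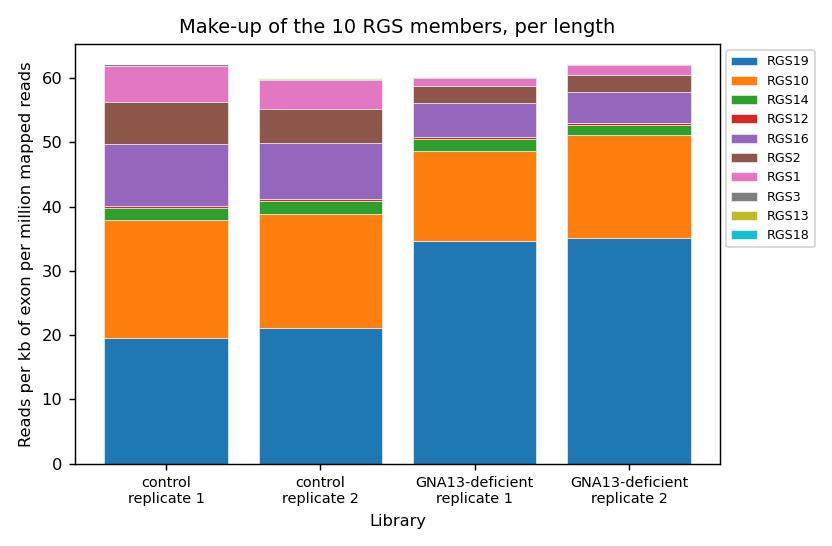
RPKM over merged exons (vertical axis, from 0), stacked by RGS gene, in each of the 4 libraries (horizontal axis). The stacks are of similar height, 60.0 to 62.2, while the RGS19 segment at the base grows from 19.6 and 21.1 to 34.7 and 35.1 and the RGS16, RGS2 and RGS1 segments shrink.

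RGS genes are not scattered evenly over the genome, and 5 of the 10 lie on chromosome 1. RGS18, RGS1, RGS13 and RGS2 stand in that order on the plus strand within 654 kb (GRCh37, the assembly of hg19), with RGS21 between RGS18 and RGS1 and no other protein-coding gene. RGS1 spans chromosome 1 from 192544893 to 192549154, RGS13 from 192605268 to 192629441 and RGS2 from 192778169 to 192781405. Thus RGS1 ends 56.1 kb before RGS13 begins, and RGS13 ends 149 kb before RGS2. These 3 neighbours all fell, with log2 differences of -1.83, -2.78 and -1.07, where 16.6% of all genes tested were lower at an adjusted p under 0.05. The value of RGS13 rested on 12 and 13 reads against 3 and 1, so its size was poorly determined. RGS18, 390 kb from RGS1, and RGS21 were at or near 0 reads. BRINP3, the protein-coding gene before RGS18, was not tested, so no value is given for that side of the cluster. Past RGS2, the tested neighbours UCHL5, GLRX2 and CDC73 had differences of 0.15, 0.47 and -0.14 with adjusted p values of 0.194, 0.083 and 0.286 from limma. RGS16, the other member on this chromosome that fell, lies far away, from 182567758 to 182573524 on the minus strand. No other annotated gene shared exon bases with any member but RGS18, where an antisense long noncoding RNA overlaps 5.46% of them.

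**Figure D4:**
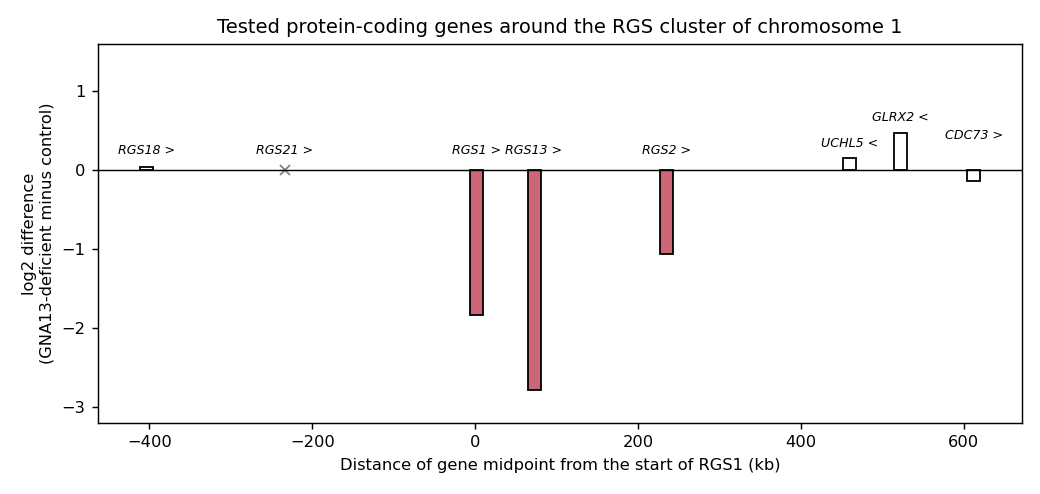
Log2 difference between genotypes (vertical axis, GNA13-deficient minus control) of tested protein-coding genes placed by distance of their midpoint from the start of RGS1 in kb (horizontal axis). Arrows beside the names give the strand, filled bars an adjusted p under 0.05 and a cross a gene that was not tested. RGS1, RGS13 and RGS2 stand at -1.83, -2.78 and -1.07, and UCHL5, GLRX2 and CDC73 lie between -0.14 and 0.47. The RGS13 bar rests on 12 and 13 reads in libraries labelled control against 3 and 1 in the pair labelled GNA13-deficient.

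The promoters of the 4 members on chromosome 1 that fell are shown to let their sequences be compared. Whether these falls share a cause was not tested. Sequences are from RefSeq (table on GRCh38.p14), were placed in GRCh37 by exact match, and are the bases before the listed start, without bases that GENCODE puts inside the gene. They lie at chr1:192544653-192544892 (RGS1), chr1:192605027-192605267 (RGS13), chr1:192777919-192778168 (RGS2), all on the plus strand, and chr1:182573525-182573774 (RGS16, minus strand). Capitals mark any match to 5 motifs searched on both strands, the TATA box TATAAA, the cAMP response hexamer TGACGT, the AP-1 site TGANTCA, the E-box CACGTG and the FOXO core GTAAACA.
RGS1: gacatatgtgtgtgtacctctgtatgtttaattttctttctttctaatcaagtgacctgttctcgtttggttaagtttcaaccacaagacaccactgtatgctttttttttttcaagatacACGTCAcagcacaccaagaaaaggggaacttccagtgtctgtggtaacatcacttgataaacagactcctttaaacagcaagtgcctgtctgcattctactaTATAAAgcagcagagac
RGS13: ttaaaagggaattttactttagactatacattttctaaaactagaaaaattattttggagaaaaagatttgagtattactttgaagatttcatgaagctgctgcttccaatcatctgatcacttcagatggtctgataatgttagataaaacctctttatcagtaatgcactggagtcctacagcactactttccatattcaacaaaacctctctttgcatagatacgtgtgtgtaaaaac
RGS2: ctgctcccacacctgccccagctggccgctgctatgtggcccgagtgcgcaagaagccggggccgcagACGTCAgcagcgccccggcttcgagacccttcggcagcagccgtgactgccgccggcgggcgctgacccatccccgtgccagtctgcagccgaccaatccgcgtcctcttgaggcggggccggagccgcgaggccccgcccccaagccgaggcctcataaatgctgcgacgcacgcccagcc
RGS16: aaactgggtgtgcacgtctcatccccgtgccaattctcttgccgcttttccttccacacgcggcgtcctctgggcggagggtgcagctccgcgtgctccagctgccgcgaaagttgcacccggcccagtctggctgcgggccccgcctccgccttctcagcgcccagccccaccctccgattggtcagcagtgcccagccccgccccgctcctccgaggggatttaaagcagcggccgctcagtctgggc
The windows of RGS1 and RGS2 each held the hexamer once, on the antisense strand as ACGTCA, from 129 to 124 and from 182 to 177 bases before the listed start. Positions count from that start, so those of RGS1 include the 10 bases left out of its printed sequence. Over 34786 promoter windows of 250 bases, 7.09% held it. RGS1 alone of the 4 held TATAAA, from 27 to 22 bases before the listed start, a motif in 10.8% of all windows. RGS13 and RGS16 matched none of the 5 motifs, and the AP-1 site, the E-box and the FOXO core occurred in 6.59%, 6.31% and 2.98% of all windows. Matches of different motifs did not overlap. Base composition also differed, with a GC content of 39.2% for RGS1 and 32% for RGS13 against 72.8% for RGS2 and 68.4% for RGS16, where the median of all windows was 58%. The motifs were picked with these sequences in view, and no binding was measured.

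The rest of the family was nearly silent in NUDUL1 cells. Of 11 further genes named RGS and a number, 5 were at 0 reads in all 4 libraries and 10 had at most 11 reads in any library. RGS5, an R4 gene best known from vascular pericytes, was the exception. Its values of 5.67 and 5.68 in libraries labelled control compared with 7.19 and 7.32 in the pair labelled GNA13-deficient, from 50 and 52 reads to 142 and 148. The genotypes lay well apart, and the gap of 1.58 (limma, adjusted p = 0.00485, standard error 0.18) was a 2.99-fold higher level, opposite to the R4 genes that fell. RGS5 lies on chromosome 1 from 163080911 to 163291581, away from the cluster, and a long noncoding RNA on its strand shares 8.06% of its exon bases. RGS9, of the R7 subfamily, had 2 and 0 reads and then 4 and 7, with an adjusted p of 0.0565 from limma. RGS6, RGS11 and RGS17 had between 0 and 8 reads in each library and adjusted p values of 0.831, 0.382 and 0.955.

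An RGS or RGS-like domain is also found in 16 other listed genes, of which 15 were tested, 5 were lower and 1 was higher, where 16.6% of all genes tested were lower and 13.1% higher. The guanine exchange factors that couple to Gα12 and Gα13 were among them. ARHGEF12, also called LARG, read 11.02 and 11.20 in libraries labelled control and 9.15 and 9.05 in the pair labelled GNA13-deficient. ARHGEF11, its close relative, read 9.30 and 9.44, then 7.81 and 7.68. Both were lower in each library labelled GNA13-deficient, by 2.01 (standard error 0.09, adjusted p = 0.000926 from limma) and 1.63 (standard error 0.10, adjusted p = 0.00157) on the log2 scale. ARHGEF1, the exchange factor immediately downstream of Gα13, read 11.84 and 11.81, then 11.97 and 11.97, a difference of 0.15 (95% interval 0.02 to 0.27) that did not pass (adjusted p = 0.0856) but did under median centring and with the replicate block.

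Of the receptor kinases, which carry an RGS-like domain before the kinase domain, GRK5 fell by 1.04 on the log2 scale (adjusted p = 0.00198 from limma) and ADRBK1, which encodes GRK2, fell by 0.44 (adjusted p = 0.00758). GRK6 rose by 0.30 (adjusted p = 0.0183). The call for ADRBK1 was lost under median centring and without a variance trend, and that for GRK6 without a variance trend. SNX13, a sorting nexin with an RGS domain, fell by 0.73 (adjusted p = 0.00808), a call lost without the filter on low values. The others did not pass. AXIN1, AXIN2, AKAP10, SNX14 and SNX25 had differences of -0.12, 1.08, -0.22, -0.23 and 0.29, and ADRBK2, GRK1 and GRK4 of -0.10, 0.08 and -0.002. With the replicate block SNX14 and SNX25 passed (limma adjusted p = 0.0488 and 0.0253), and SNX25 passed under 7 of 15 alternatives in all, SNX14 under 2.

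RGS proteins work on Gα subunits that receptors have switched on, and 70 genes of that pathway were set beside them. The receptor kinases given above are among the 70, so they are counted in both lists. Of the 70 genes, 57 were tested, and 9 were higher and 19 lower at an adjusted p under 0.05, with a median log2 difference of -0.20. Among all genes tested 13.1% were higher and 16.6% lower, and the counts of each list below are to be read beside these shares. Without the filter on low values 18 of the pathway genes passed. As many passed when only genes above the median mean were kept, where only 8473 genes in all were tested.

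Among 15 Gα genes other than GNA13, 10 were tested, 1 was higher and 2 were lower. Of all genes tested, 29.7% passed in either direction. GNA15, a Gαq-class subunit of blood cells, read 6.71 and 6.48 in libraries labelled control, then 2.62 and 1.69 in the pair labelled GNA13-deficient, from 103 and 91 reads to 6 and 3. Few reads of it were left, and the log2 difference was -4.44 (standard error 0.43, adjusted p = 0.00332 from limma). Without the filter on low values the adjusted p was 0.0561. GNA11, also of the Gαq class, was higher by 0.76 (adjusted p = 0.0106) and GNA12, the closest relative of GNA13, fell by 0.39 (adjusted p = 0.0123), a call lost under median centring, without the filter and without a variance trend. The Gαi genes GNAI2 and GNAI3 read 13.49 to 13.85 and 11.80 to 11.97 over the 4 libraries and did not pass (adjusted p = 0.206 and 0.191).

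Of 17 Gβ and Gγ genes, 14 were tested, 3 were higher and 3 lower. GNG11 fell by 3.07 on the log2 scale (standard error 0.20), from 539 and 727 reads to 65 and 78. GNG4 rose by 2.01 (standard error 0.15), from 72 and 82 reads to 324 and 269, and GNB4 fell by 0.54. GNG5 and GNB5, the other 2 higher genes, differed by 0.45 and 0.30. GNG13 had 13 and 9 reads, then 4 and 3, and its call was lost under 11 of 14 alternatives, among them all 4 with a library left out. Arrestins, which uncouple receptors from G proteins, moved in opposite directions. ARRB1 read 8.29 and 8.39 and then 4.62 and 4.35, a difference of -3.85 (standard error 0.20, limma adjusted p = 0.00114), while ARRB2 rose by 0.69 (standard error 0.06, adjusted p = 0.00225). Of 9 kinase and arrestin genes, 8 were tested, 2 were higher and 3 lower.

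Proteins that load or hold Gα outside the receptor cycle gave 2 higher and 3 lower genes of 8 tested. RIC8A, a chaperone and exchange factor for several Gα subunits, read 11.96 and 11.98, then 12.07 and 12.16, and did not pass, with a difference of 0.14 (adjusted p = 0.137 from limma). GPSM2, which holds Gαi in its GDP form, rose by 0.71, as did its relative GPSM1 by 0.51. CCDC88C, GPSM3 and RIC8B fell by 0.87, 0.82 and 0.77. The calls for GPSM2, GPSM3 and RIC8B were lost without the filter on low values, and that for RIC8B also under quantile normalization, median centring and no variance trend.

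Of the receptors, the longest of these lists, 8 of 17 tested were lower and 1 was higher. Among all genes tested, 16.6% were lower and 13.1% were higher. CXCR5, the chemokine receptor that brings B cells into follicles, read 6.60 and 6.85 and then 3.74 and 4.28. Its difference was -2.71 (standard error 0.31, adjusted p = 0.00485 from limma). GPR132 fell by 2.68 and PTGER4, a prostaglandin E2 receptor, fell by 1.58. ADORA2A, an adenosine receptor, fell by 0.78. For CXCR5 and ADORA2A the call was lost without the filter on low values. The other lower receptors were S1PR1, P2RY8, CXCR4 and CCR7, at -0.69, -0.62, -0.73 and -0.56. GPR183, which guides B cells along oxysterol gradients, was the higher one, at 0.52.

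**Figure D5:**
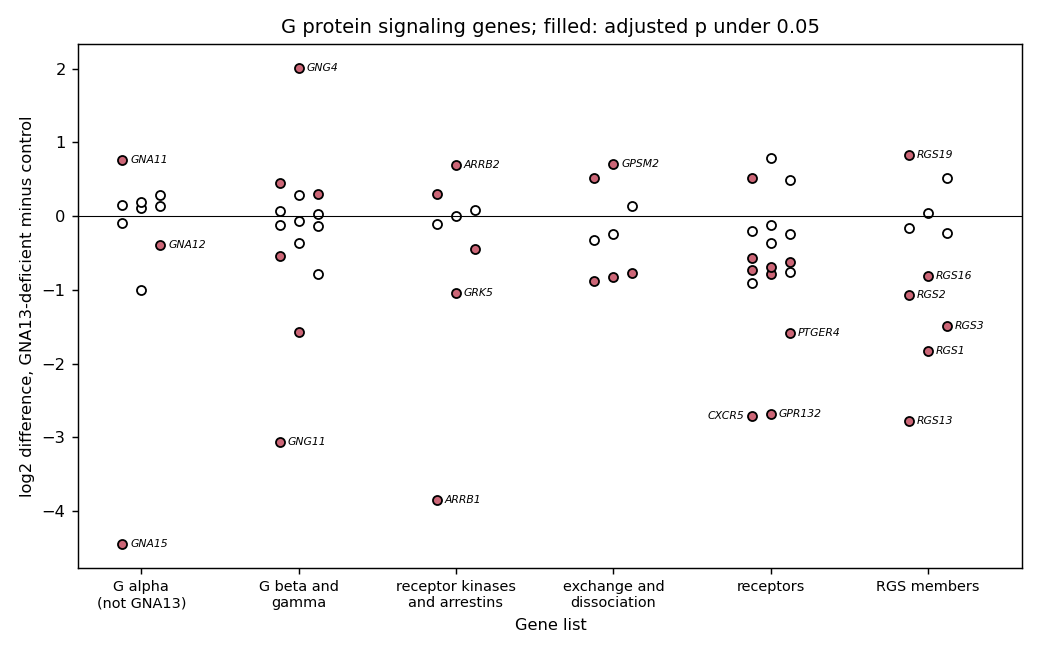
Log2 difference between genotypes (vertical axis, GNA13-deficient minus control) for tested genes of 5 lists of G protein signaling genes and the 10 RGS genes (horizontal axis). Each point is a gene and filled points have an adjusted p under 0.05. GNA15 at -4.44, ARRB1 at -3.85 and GNG11 at -3.07 lie furthest below 0 and GNG4 at 2.01 furthest above.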

How the data were processed

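RNA was sequenced from 2 libraries per genotype of NUDUL1 cells treated with U46619. Alignment was to hg19 with STAR, and the authors' deposited values are log2 of normalized reads. HTSeq is named in the submitters' processing notes, while the normalization and annotation are not given in the sources used here. The RGS genes, lists and tests were chosen with earlier results of these data known. Deposited log2 values of genes above 0 in at least 2 libraries were compared with limma 3.58.1 in R 4.3.3 (mean-variance trend, genotype as the only term, 2 residual degrees of freedom), with Benjamini-Hochberg adjustment over 16945 genes. Intervals are 95% moderated intervals. Low values step in whole reads, and 100% of nonzero values up to 400 reads came out whole within rounding. In control replicate 2 a listed 0 can stand for 1 read. Recovered reads gave the depth, the floor of 3 reads (counting error only) and an alternative with limma's voom weights. Named genes were the 10 RGS genes, GNA13, each tested gene with an RGS domain, ARHGEF1, RIC8A and, per pathway list, up to 4 genes with the largest absolute difference at an adjusted p under 0.05. Further pathway genes, and the neighbours of RGS2, were chosen after their values were seen. Of 71 pathway symbols 70 matched, and 1 marker gene is not reported here. Exon lengths and positions are from GENCODE 44 on GRCh37. The fit was tested on simulated data. Alternatives were other filters, pseudocounts, scalings and variance models, the replicate block and leaving out each library.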

Additional observations from a re-analysis of the deposited data

How the results depend on the processing

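Over the alternatives, the count of RGS genes called moved from 6 to 3 without a filter on low values and to 3 when only genes above the median mean were kept, under which 4 of the 10 were tested; the lower genes went from 5 to 2 in both. The higher genes went from 1 to 2 under quantile normalization, median centring, the robust prior and voom weights, through RGS12. The pathway count went from 28 to 18 under each of these filter changes, and was 28 with a filter of 2 reads in at least 2 libraries. Of all genes, 5037 were called, against 1999 unfiltered (1885 in both) and 2718 without a variance trend (2520 in both). Under median centring the median difference was 0.18, and the share of higher calls went from 44% to 69.1%. The causes of these changes were not tested, apart from the fewer genes tested.

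Leaving out any library left 1 residual degree of freedom in limma, with the lone library assumed to vary like the other genotype, and no gene passed (counts of 0 to 0 for RGS genes, either direction, other RGS-domain, pathway and all genes), although 5257 to 5600 genes, among them 5 to 7 of the RGS genes, had an unadjusted p under 0.05. Differences then ranged from -2.00 to -1.66 for RGS1, from -1.18 to -0.96 for RGS2, from -1.72 to -1.27 for RGS3, from -3.54 to -2.02 for RGS13, from -0.85 to -0.76 for RGS16 and from 0.74 to 0.91 for RGS19.

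Signs turned only in genes that had not passed. RGS14 was 0.073 under quantile normalization and 0.042 under median centring, which also gave AXIN1 0.087 and ADRBK2 0.10. RGS6 was 0.037 with a pseudocount of 10 and 0.042 under quantile normalization. GRK4 was 0.0060 with a pseudocount of 10, 0.45 under quantile normalization, 0.21 under median centring and 0.0065 with voom weights. With libraries left out, RGS18 ranged from -0.013 to 0.093, RGS11 from -1.93 to 0.028, RGS17 from -0.45 to 0.57, RGS6 from -1.92 to 1.15, GRK1 from -0.41 to 0.57 and GRK4 from -0.37 to 0.37.

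The genotypes share replicate numbers but no source ties libraries of a number to each other. Deviations from the genotype means correlated at 0.453 between equal numbers, over 8473 genes that are not independent. A replicate block in the fit gave 6616 called genes, against 5037, with 6 of the RGS genes called as before. It gave 10 other RGS-domain genes, against 7, and 33 pathway genes, against 28.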

Other observations

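RGS4, an R4 gene on chromosome 1, had 11 reads in GNA13-deficient replicate 1 and 0 reads in the other 3 libraries, and was not tested. It was singled out after its values were seen.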
